A study of Mus musculus with 3 samples.

Results

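The genes described here encode the cytokines interleukin-4 and interleukin-13, the chains of their receptors, and the kinase and transcription factor that act below them. The list held 7 genes, *Il4*, *Il13*, *Il4ra*, *Il13ra1*, *Il2rg*, *Stat6* and *Jak3*, and its members were chosen by pathway with their RMA values on these same arrays known, so all values below are descriptions. Every probe set that carries one of these symbols alone was read, which gave 13 probe sets for 6 of the 7 genes, among 18193 genes in all. No probe set used here carries *Il2rg* as its single symbol, so this gene has no value. The samples were macrophages from mice with 4T1 tumors. This mammary carcinoma line of BALB/c origin was inoculated into the mammary fat pad of BALB/c mice aged 5 to 6 weeks, and it spreads to the lung. mTAMs were tumor-associated macrophages of the metastatic lung and pTAMs those of the matched primary tumor, both taken at week 5 after inoculation. BMDM were macrophages grown in culture from marrow of healthy mice. All were sorted for CD11b and F4/80, and the sources used here do not say whether Ly6C was gated as well.

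Interleukin-4 and interleukin-13 are the cytokines of type 2 immunity, made mainly by T helper 2 cells, group 2 innate lymphoid cells, basophils, mast cells and eosinophils. Both bind receptors that contain the chain encoded by *Il4ra*. The type I receptor pairs it with the common gamma chain encoded by *Il2rg*, which carries JAK3, and binds interleukin-4 alone. The type II receptor pairs it with the chain encoded by *Il13ra1* and binds either cytokine. Both receptors lead to phosphorylation of STAT6, which switches on the genes of alternative, or M2, activation in macrophages.

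Each group was measured on 1 Affymetrix array, so no difference has an error across animals and no test between groups was possible. Values are RMA values on the log2 scale, in which a difference of 1 is 2-fold. They are normalized between arrays, and they do not rank one gene against another, as probe sets differ in how brightly they hybridise. Values at or below a floor of 5.56, the 95th percentile over 84 probe sets of smell, pheromone and taste receptor genes, were treated as background. A fold against such a value is given against the floor, as a lower bound. Genes above the floor numbered 10905 in mTAMs, 10884 in pTAMs and 10726 in BMDM. The only technical spread at hand came from genes with several probe sets, whose log2 differences had an SD of 0.28 between mTAMs and pTAMs, 0.52 between mTAMs and BMDM and 0.42 between pTAMs and BMDM. All 8 macrophage markers on the list were above the floor on every array, among them *Csf1r* at 12.89 in mTAMs and 13.27 in pTAMs, against 13.35 in BMDM. The gene for the sorted antigen F4/80, *Adgre1*, was lower in both kinds of TAM, at 10.06 in mTAMs and 10.00 in pTAMs, against 11.93 in BMDM.

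*Il4*, which encodes the ligand of both receptors, was at background on 2 arrays and barely above it on the other. Its single probe set read 5.57 in mTAMs and 4.21 in pTAMs, against 4.04 in BMDM. The mTAM value was thus the highest, and it exceeded the floor by 0.01. The measured log2 difference was 1.36 for mTAMs against pTAMs and 1.53 for mTAMs against BMDM, but against the floor *Il4* can be called only at least 1.01-fold higher in mTAMs. Some sensory receptor probe sets reached up to 6.54, so a level of 5.57 cannot be separated from background by this rule alone. In bulk samples such as these, a change in the number of cells that express a gene and a change in its RNA per cell cannot be told apart. *Il13*, which encodes the other ligand, read 4.37 on all 3 arrays, below the floor. Of all probe sets, 21.4% had one value on all 3 arrays, so such a flat row is common in this table.

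Of the cells known to make interleukin-4, basophils and mast cells had some markers that were higher in mTAMs. Of 10 mast cell and basophil markers, 5 were above the floor on the mTAM array. Each of these exceeded pTAMs and BMDM by 2-fold or more as measured, by its probe set with the highest mean. *Mcpt8*, a protease gene that defines basophils in the mouse, was 8.90 in mTAMs and 4.89 in pTAMs, against 4.66 in BMDM, so mTAMs exceeded both by at least 10.1-fold. *Cpa3*, which encodes the carboxypeptidase of mast cell and basophil granules, was 6.51 in mTAMs and 4.51 in pTAMs, against 4.91 in BMDM. *Kit*, the stem cell factor receptor gene, was 8.83 in mTAMs and 5.95 in pTAMs, against 4.00 in BMDM. *Hdc*, which encodes the histamine-forming enzyme and is expressed by immature myeloid cells as well, was 12.40 in mTAMs and 9.99 in pTAMs, against 6.20 in BMDM. The fifth was the transcription factor gene *Gata2*, 2.71-fold higher in mTAMs than in pTAMs. Its second probe set lay near the floor, at 5.59 in mTAMs and 5.13 in pTAMs, against 5.14 in BMDM. For mTAMs minus pTAMs it gave a log2 difference of 0.46, while the second probe sets of *Kit* and *Hdc* gave 1.82 and 2.22.

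The defining genes of connective tissue mast cells were not above background. *Mcpt4* read 4.13 on all 3 arrays, *Cma1* 5.11 in mTAMs, 4.89 in pTAMs and 5.16 in BMDM, and *Tpsb2* 4.83 in mTAMs and 4.76 in both pTAMs and BMDM. The genes of the high-affinity IgE receptor, which both cell types carry, lay below the floor everywhere but were highest in mTAMs. *Fcer1a* was 4.83 in mTAMs and 2.91 in pTAMs, against 3.29 in BMDM, and *Ms4a2* was 5.34 in mTAMs and 3.75 in pTAMs, against 3.50 in BMDM. Summed on the linear scale, the 10 markers came to 6720 in mTAMs, 1280 in pTAMs and 299 in BMDM, and *Hdc* made up most of the sum in both kinds of TAM.

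**Figure D1:**
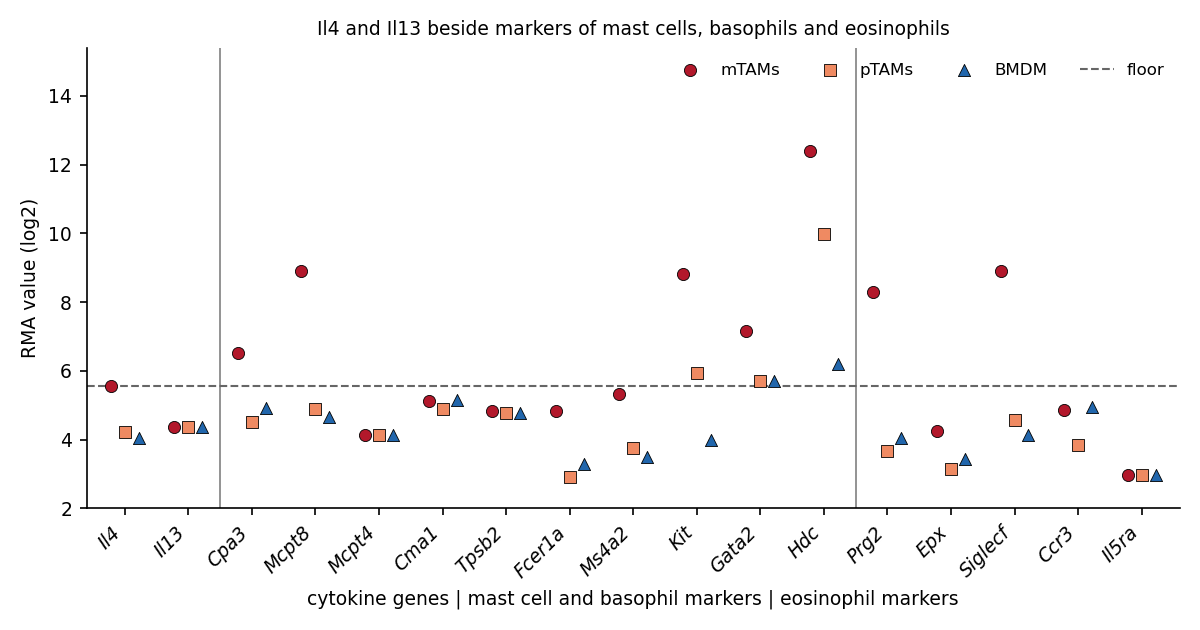
RMA values (vertical axis, log2) of *Il4* and *Il13*, 10 mast cell and basophil markers and 5 eosinophil markers (horizontal axis) on the mTAM, pTAM and BMDM arrays, with 1 point per array and the floor of 5.56 dashed. *Il4* in mTAMs sits on the floor line at 5.57, while *Mcpt8* reaches 8.90 and *Prg2* 8.30 in mTAMs and lie below the floor on the other arrays.

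Eosinophil markers were higher in mTAMs too, although the most specific ones were not above background. Of 5 such genes, 2 passed the floor, both on the mTAM array alone. *Prg2*, which encodes a granule protein of eosinophils, was 8.30 in mTAMs and 3.66 in pTAMs, against 4.05 in BMDM. *Siglecf*, which is also carried by alveolar macrophages, was 8.91 in mTAMs and 4.57 in pTAMs, against 4.13 in BMDM. *Epx*, the eosinophil peroxidase gene, was below the floor at 4.25 in mTAMs and 3.13 in pTAMs, against 3.43 in BMDM, and *Il5ra* read 2.97 on each array. The summed linear level of the 5 genes was 852 in mTAMs and 67.2 in pTAMs, against 83.4 in BMDM.

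Lymphocyte markers gave a mixed picture beside *Il4*. Of 10 T cell markers with a value, 2 exceeded pTAMs by 2-fold or more in mTAMs and none was lower. *Cd3d*, a subunit of the T cell receptor complex, was 8.31 in mTAMs and 6.03 in pTAMs, against 5.86 in BMDM. *Cd3e*, another subunit, was 6.57 in mTAMs and 6.52 in pTAMs, against 6.49 in BMDM, and *Cd3g* was below the floor on every array. Summed linear levels of the T cell markers were 1120 in mTAMs, 737 in pTAMs and 681 in BMDM. *Gata3*, which T helper 2 cells and group 2 innate lymphoid cells share, was higher in pTAMs than in mTAMs, at 5.85 in mTAMs and 6.44 in pTAMs, against 4.34 in BMDM. The 5 group 2 innate lymphoid cell markers had their lowest sum in mTAMs, with linear levels of 666 in mTAMs and 1330 in pTAMs, against 1350 in BMDM, and *Il7r* made up most of it. *Il17rb*, the receptor for interleukin-25 on these cells, read 4.06 on every array. What part any of these cells had in the *Il4* value was not tested.

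Sequence near the annotated starts of *Il4* is shown because it holds the palindrome that STAT proteins recognise. STAT6 binds best where 4 bases part the arms, written TTCNNNNGAA, and other STATs prefer 3 bases, written TTCNNNGAA. Both motifs read the same on either strand, and a window of 300 bases, from 250 before to 50 after each annotated start, was searched for them. The sequences are those of RefSeq on GRCm38.p6, which is the C57BL/6J genome and not that of BALB/c. Among the 7 genes, *Il4* alone held a match. Over all 27025 genes with such a window, 8.01% held the first motif and 9.55% the second. The *Il4* matches are given below with the motif in capitals. The first begins 167 bases before the upstream start, at chr11:53618814-53618841 on the minus strand. The second begins 4 bases before the downstream start and runs across it, at chr11:53617325-53617351 on the same strand.
Il4 upstream start: tggtctgatTTCACAGGAAaatttacct
Il4 downstream start: gttcctgttTTCATGGAAacacaccac

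The receptor chains were higher in TAMs than in BMDM. *Il13ra1*, which encodes the chain that completes the type II receptor, was at background in BMDM and far above it in both kinds of TAM. Its main probe set read 10.65 in mTAMs and 10.08 in pTAMs, against 5.00 in BMDM. mTAMs exceeded BMDM by at least 34.1-fold, and pTAMs did so by at least 22.9-fold.

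*Il13ra1* was read by 5 probe sets, of which 4 showed the same pattern. The other 3 of these read 10.21, 10.45 and 10.28 in mTAMs, 9.75, 9.82 and 9.92 in pTAMs, and 4.28, 5.10 and 5.20 in BMDM. Their log2 differences ran from 5.08 to 5.93 for mTAMs against BMDM and from 4.72 to 5.47 for pTAMs against BMDM. The fifth probe set stayed below the floor on every array, at 5.44 in mTAMs and 5.23 in pTAMs, against 4.80 in BMDM. Between the TAMs, *Il13ra1* was 1.48-fold higher in mTAMs, with log2 differences from 0.21 to 0.63 over the 5 probe sets, and thus within 2-fold by each of them.

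The promoter window of *Il13ra1*, the member with the largest measured difference from BMDM, held neither STAT motif. It lies at chrX:36111858-36112157 on the plus strand of GRCm38.p6, and 71.0% of its bases are G or C. It holds 28 CG pairs, given in capitals, which is 0.742 of the number its base composition would give. The window of *Il4ra* came to 0.935 by this measure, that of *Stat6* to 0.324 and that of *Il13* to 0.193.
Il13ra1: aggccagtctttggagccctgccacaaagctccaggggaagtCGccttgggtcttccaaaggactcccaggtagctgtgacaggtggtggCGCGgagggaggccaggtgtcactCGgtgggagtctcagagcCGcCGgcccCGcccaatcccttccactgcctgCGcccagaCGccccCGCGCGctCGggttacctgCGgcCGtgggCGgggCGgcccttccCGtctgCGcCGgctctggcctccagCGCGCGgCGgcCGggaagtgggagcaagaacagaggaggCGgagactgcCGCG

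*Il4ra*, which encodes the chain common to both receptors, differed in the same direction but was present in BMDM. Its main probe set read 9.92 in mTAMs and 9.76 in pTAMs, against 6.83 in BMDM, and it was 8.51-fold higher in mTAMs and 7.62-fold higher in pTAMs than in BMDM. The second probe set gave log2 differences of 3.08 for mTAMs against BMDM and 2.48 for pTAMs against BMDM. The third was near background, at 5.94 in mTAMs and 6.48 in pTAMs, against 5.54 in BMDM, and gave 0.40 for mTAMs and 0.94 for pTAMs, each minus BMDM. mTAMs and pTAMs were 1.12-fold apart by the main probe set. The second gave a log2 difference of 0.60 in favor of mTAMs and the third -0.54, so the sign between the TAMs was not settled for *Il4ra*.

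**Figure D2:**
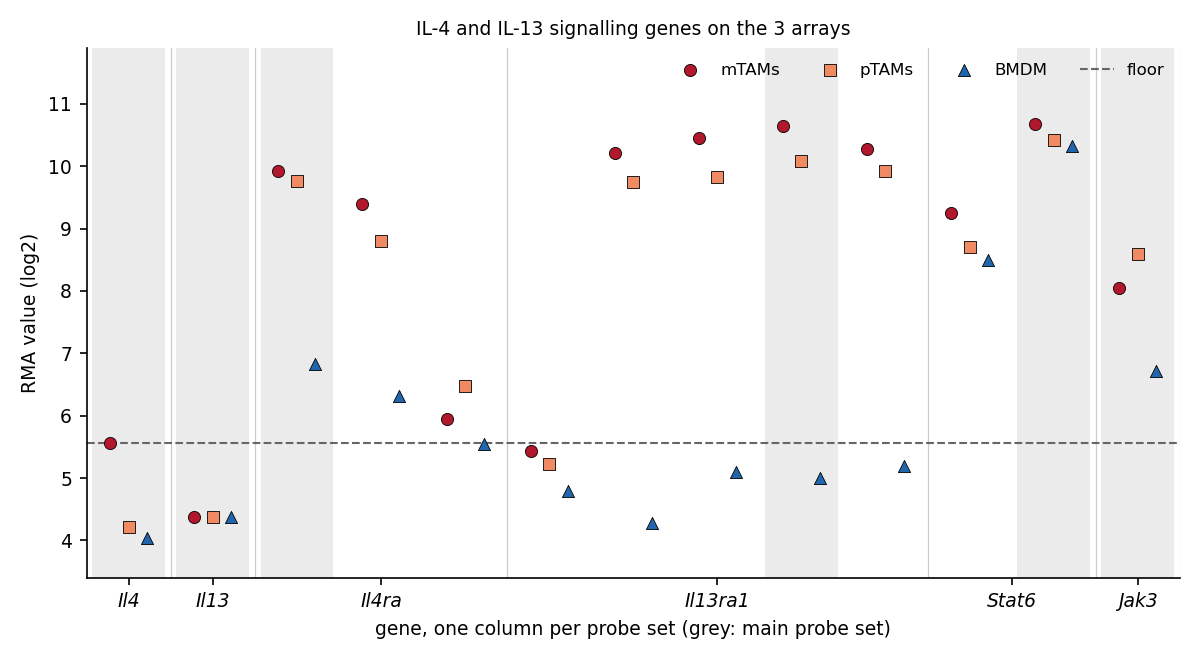
RMA values (vertical axis, log2) of all 13 probe sets of 6 genes (horizontal axis, 1 column per probe set, the main one of each gene on grey) on the mTAM, pTAM and BMDM arrays, with the floor of 5.56 dashed. For 4 of the 5 *Il13ra1* probe sets both TAM arrays lie between 9.75 and 10.65 and BMDM between 4.28 and 5.20.

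Both receptor chains are also expressed by monocytes and granulocytes, and neutrophil markers moved with them against BMDM but not between the TAMs. All 8 neutrophil markers with a value exceeded BMDM by 2-fold or more in both kinds of TAM. *S100a9*, a calcium-binding protein gene of neutrophils and monocytes, was 14.30 in mTAMs and 13.75 in pTAMs, against 7.73 in BMDM. *Cxcr2*, the chemokine receptor of neutrophils, was 11.32 in mTAMs and 8.18 in pTAMs, against 5.14 in BMDM. The summed linear level of the 8 markers was 69500 in mTAMs and 31600 in pTAMs, against 1480 in BMDM. In mTAMs 6 of the 8 exceeded pTAMs by 2-fold or more, while *Il13ra1* and *Il4ra* stayed within 2-fold by every probe set. The part of monocytes and granulocytes in the receptor values was not tested.

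*Stat6*, the transcription factor, showed little difference between the groups. Its main probe set read 10.67 in mTAMs and 10.42 in pTAMs, against 10.32 in BMDM, and the other read 9.25 in mTAMs and 8.71 in pTAMs, against 8.50 in BMDM. Both put mTAMs highest, with log2 differences from BMDM of 0.35 and 0.75, against an SD between probe sets of 0.52. In pTAMs against BMDM the differences were 0.10 and 0.21. An array measures the transcript and not the phosphorylation by which STAT6 is switched on.

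*Jak3*, which encodes the kinase bound to the common gamma chain, was higher in both kinds of TAM than in BMDM. It read 8.05 in mTAMs and 8.60 in pTAMs, against 6.71 in BMDM, by 1 probe set. It was 2.53-fold higher in mTAMs and 3.71-fold higher in pTAMs than in BMDM. Its highest value was in pTAMs, 1.46-fold above mTAMs. JAK3 is abundant in lymphocytes, whose markers gave no common direction. *Klrk1*, a receptor gene of NK cells and activated T cells, had the order of *Jak3*, at 7.05 in mTAMs and 8.13 in pTAMs, against 5.68 in BMDM. The T cell marker *Cd2* did not, at 7.67 in mTAMs and 5.62 in pTAMs, against 6.35 in BMDM. Nor did the NK cell marker *Gzmb*, at 8.22 in mTAMs and 5.97 in pTAMs, against 5.38 in BMDM. *Nkg7*, also on the NK cell list, was highest in mTAMs too, at 5.85, with 5.71 in pTAMs and 5.44 in BMDM. Of 8 NK cell markers with a value, 5 were below the floor on every array, and of 5 B cell markers 4 were. The summed NK cell markers came to 593 in mTAMs, 501 in pTAMs and 237 in BMDM, and the B cell markers to 183 in mTAMs, 175 in pTAMs and 174 in BMDM. The part of lymphocytes in the *Jak3* value was not tested.

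Of the 4 members compared between pTAMs and BMDM, *Il13ra1*, *Il4ra* and *Jak3* were higher by 2-fold or more and *Stat6* was within 2-fold. Of all 11229 genes compared, 9.21% were called higher by this threshold and 7.85% lower. Between mTAMs and BMDM 5 members were compared, and 4 of them, with *Il4* added, were higher as measured, against 12.0% of 11305 genes higher and 15.1% lower. Both comparisons share the BMDM array. For mTAMs against pTAMs, *Il4* alone of 5 members passed 2-fold as measured and none did against the floor, while 5.59% of 11141 genes were higher and 2.71% lower. Since the list was made with these differences in view, nothing is read from these shares. Over all compared genes the median log2 difference was -0.08 for mTAMs minus pTAMs, -0.14 for mTAMs minus BMDM and -0.07 for pTAMs minus BMDM. Of all calls in mTAMs against BMDM 44.3% were higher, or 55.1% after cyclic loess normalization.

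**Figure D3:**
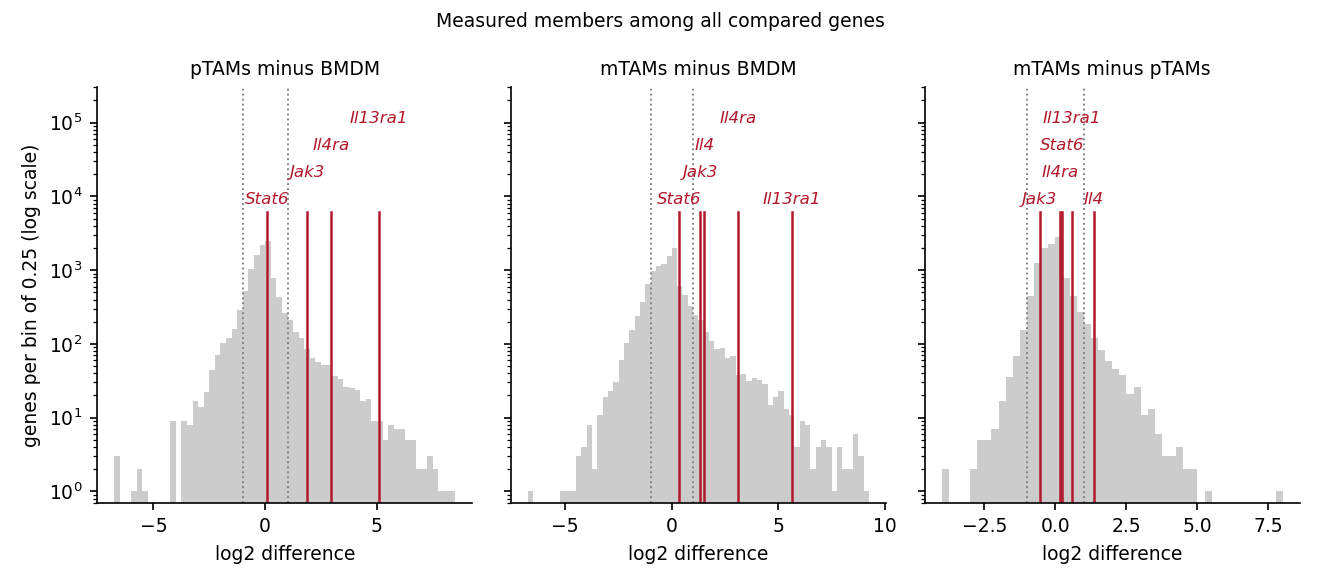
Number of genes (vertical axis, log scale) by log2 difference (horizontal axis, bins of 0.25) in pTAMs minus BMDM, mTAMs minus BMDM and mTAMs minus pTAMs, with the compared members as red lines and 2-fold dotted. *Il13ra1* lies at 5.08 and 5.65 in the tails of the first 2 panels, and *Stat6* lies near the center of each.

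Genes with a pattern like that of a member over the 3 arrays were found by the distance between values centered on their mean. For *Il13ra1* the nearest were *Fosb*, an immediate early gene, at a distance of 0.057, the neutrophil and monocyte gene *S100a8* at 0.262 and the cytokine gene *Osm* at 0.278. Of 10977 genes, 8 lay within 0.5 of *Il13ra1*. *Il4ra* had 57 such genes, led by *Marchf1*, *Klra2* and *Calhm6*. *Jak3* had 192, led by *Dennd11*, *Timp1* and *Hes1*, and *Il4* had 312, led by *Mir142*, *Tmem71* and *Qsox1*. *Stat6*, which hardly varied, had 4437, led by *Gpank1*, *Casc3* and *Anks1*. With 3 points per gene, likeness of this kind is loose, and for *Il13ra1* and *Il4* the distances also rest on readings below the floor, in BMDM for *Il13ra1* and in pTAMs and BMDM for *Il4*.

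The other kinases and adaptors of these receptors were present in all groups with 1 exception. *Jak2*, which can act with the type II receptor, was 9.73 in mTAMs and 10.18 in pTAMs, against 8.44 in BMDM, so it was 2.45-fold higher in mTAMs and 3.34-fold higher in pTAMs than in BMDM. *Jak1*, which binds the chain of *Il4ra*, was 10.63 in mTAMs and 10.00 in pTAMs, against 9.63 in BMDM, just 2-fold higher in mTAMs than in BMDM. *Tyk2*, the kinase of the chain encoded by *Il13ra1*, was 7.96 in mTAMs and 8.36 in pTAMs, against 7.82 in BMDM, all within 2-fold. *Irs2*, an adaptor of the type I receptor in macrophages, was 8.23 in mTAMs and 7.85 in pTAMs, against 6.49 in BMDM. The exception was the related adaptor *Irs1*, which passed the floor in pTAMs alone at 6.04, with 5.17 in mTAMs and 4.70 in BMDM. In all, 3 of 8 of these genes passed 2-fold above BMDM in pTAMs, or 2 against the floor, and *Pik3r1* was 2.13-fold lower. Its 3 other probe sets gave log2 differences from -1.60 to 0.28. Of 7 compared in mTAMs against BMDM, 3 were higher and none lower, and between the TAMs all 8 were within 2-fold by their main probe sets. *Pik3cd*, a catalytic subunit of phosphoinositide 3-kinase, was 11.03 in mTAMs and 10.96 in pTAMs, against 11.00 in BMDM by its main probe set, but another gave log2 differences of 1.27 for mTAMs minus pTAMs and 1.38 for mTAMs minus BMDM. The 4 others gave from -0.05 to 0.92 for mTAMs minus pTAMs.

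Inhibitors of the pathway that differed from BMDM by 2-fold or more were higher in TAMs. *Socs3*, a feedback inhibitor induced mainly by interleukin-6 and related cytokines, was 12.75 in mTAMs and 11.86 in pTAMs, against 4.21 in BMDM, a gap of at least 146-fold for mTAMs and at least 78.8-fold for pTAMs. *Cish*, a feedback inhibitor that cytokines induce through STAT5 and STAT6, was 7.10 in mTAMs and 7.83 in pTAMs, against 5.89 in BMDM. *Ptpn1*, a phosphatase that acts on STAT6, was 11.64 in mTAMs and 11.10 in pTAMs, against 9.37 in BMDM. *Socs1*, which blocks JAK kinases, differed less, at 6.21 in mTAMs and 6.80 in pTAMs, against 5.79 in BMDM. *Il13ra2*, the decoy receptor for interleukin-13, read 4.46 on all 3 arrays and so was below the floor. *Socs5* went the other way, at 7.36 in mTAMs and 7.64 in pTAMs, against 8.33 in BMDM, and was 1.96-fold lower in mTAMs. Its other probe set gave log2 differences from BMDM of -0.28 in mTAMs and 0.04 in pTAMs. Of the 7 inhibitors compared, 3 in mTAMs and 4 in pTAMs exceeded BMDM by 2-fold or more, and none was lower by as much. All 7 were within 2-fold between mTAMs and pTAMs by their main probe sets. Another probe set of *Socs3* read 12.06 in mTAMs and 10.94 in pTAMs, a log2 difference of 1.12. *Cish* and *Socs1* are STAT6 targets as well and stand on both lists.

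**Figure D4:**
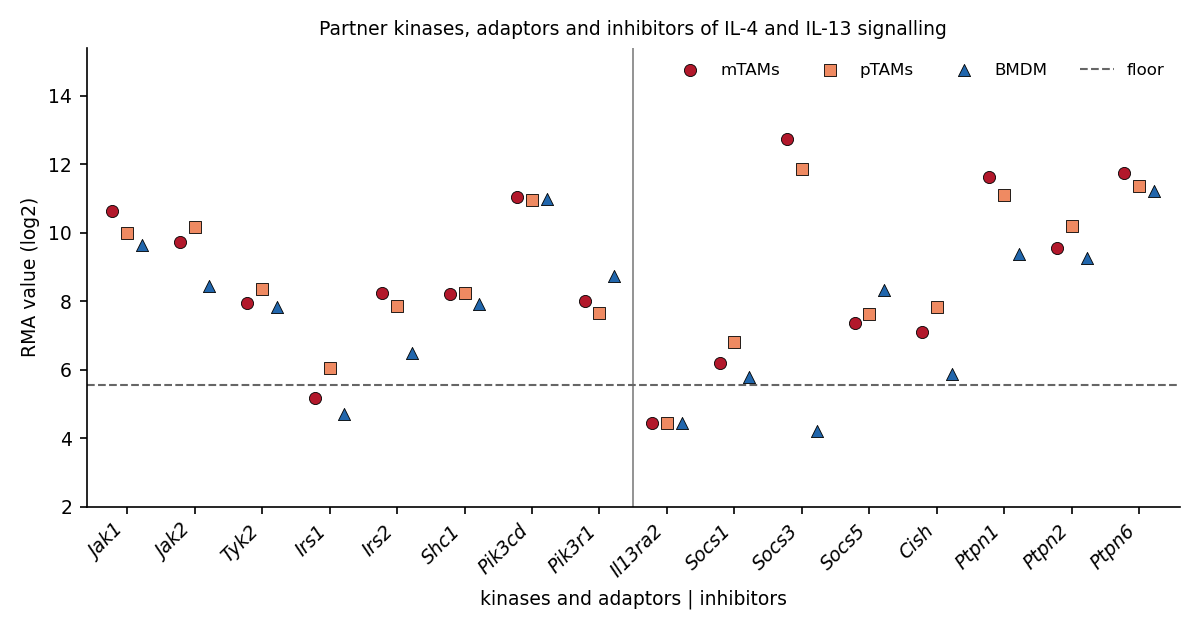
RMA values (vertical axis, log2) of 8 kinases and adaptors and 8 inhibitors (horizontal axis) on the mTAM, pTAM and BMDM arrays, with the floor of 5.56 dashed. *Socs3* is at 12.75 in mTAMs and 11.86 in pTAMs, against 4.21 in BMDM, and *Il13ra2* reads 4.46 on each array.

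Genes for the other cytokines and receptors that use the common gamma chain were mostly at background. Of 11 such genes, 6 were below the floor on every array, among them *Il2*, *Il7*, *Il9* and *Il21*. *Il15ra*, the receptor chain that presents interleukin-15, was 8.29 in mTAMs and 7.98 in pTAMs, against 6.12 in BMDM, and so was 4.50-fold higher in mTAMs and 3.63-fold higher in pTAMs than in BMDM. *Il7r*, which encodes the receptor chain for interleukin-7 and thymic stromal lymphopoietin, was lower in mTAMs than in either other group, at 8.82 in mTAMs and 10.08 in pTAMs, against 10.19 in BMDM. Its second probe set put mTAMs lowest as well, with log2 differences of -1.55 from pTAMs and -1.19 from BMDM.

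Next to *Il4* and *Il13* in the type 2 cytokine locus lie *Rad50*, *Kif3a* and *Il5*, none of which moved with *Il4*. *Il5* read 2.97 on each array. *Kif3a*, a kinesin gene, was 7.06 in mTAMs and 7.42 in pTAMs, against 8.40 in BMDM, and thus 2.53-fold lower in mTAMs than in BMDM. *Rad50*, a DNA repair gene, was 7.91 in mTAMs and 8.34 in pTAMs, against 8.75 in BMDM. Of the epithelial cytokines that induce interleukin-4 and interleukin-13 in other cells, *Il33* was 6.11 in mTAMs and 6.31 in pTAMs, against 3.91 in BMDM, and *Tslp* was 5.27 in mTAMs and 6.06 in pTAMs, against 3.73 in BMDM. Against the floor these come to at least 1.46-fold for *Il33* in mTAMs, at least 1.68-fold for *Il33* in pTAMs and at least 1.41-fold for *Tslp* in pTAMs. *Il25* was below the floor throughout. Markers of epithelium or carcinoma moved with *Il33* and *Tslp*, since 5 of 6 exceeded BMDM by 2-fold or more in each kind of TAM, with summed linear levels of 2210 in mTAMs, 4150 in pTAMs and 213 in BMDM. Their part in the values was not tested.

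As 1 list, the other 33 pathway genes gave 10 higher by 2-fold or more and 1 lower of 24 compared in pTAMs against BMDM. In mTAMs against BMDM, 8 were higher and 2 lower of 22. Over all genes, 9.21% were higher and 7.85% lower in pTAMs, and 12.0% higher and 15.1% lower in mTAMs, each against BMDM. Against the floor the higher pathway genes numbered 7 in each comparison. Between mTAMs and pTAMs, *Il7r* alone of 23 passed 2-fold by the main probe sets, and it was lower in mTAMs. Over all genes, 5.59% were higher and 2.71% lower in mTAMs than in pTAMs. The list was chosen with earlier results of these data known, so nothing is read from these shares.

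The genes that interleukin-4 induces through STAT6 in mouse macrophages differed widely, and most of those that differed were higher in TAMs. Of 25 such genes compared in pTAMs and BMDM, 17 were higher by 2-fold or more and 2 lower. Their median log2 difference was 1.94, against -0.07 over all genes, of which 9.21% were higher and 7.85% lower. Of 24 targets compared in mTAMs and BMDM, 13 were higher and 1 lower. Their median was 1.21, or 0.93 against the floor. Over all genes it was -0.14, with 12.0% higher and 15.1% lower. The target list too was chosen with earlier results of these data known. *Chil4*, *Irf4* and *Il4i1* were at or below the floor on every array. Many of these genes also respond to other signals, so the list does not measure interleukin-4 alone. Against BMDM the neutrophil markers moved with the list, 8 of 8 being higher in each kind of TAM. Between mTAMs and pTAMs the 2 lists went opposite ways. There 6 of 8 neutrophil markers were higher in mTAMs, whereas 2 targets were higher and 6 lower. Granulocytes also express some of the targets, such as *Clec7a*. Their part in the target values was not tested.

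*Retnla*, which encodes the secreted protein RELMα and is among the genes most dependent on STAT6, was 11.24 in mTAMs and 10.35 in pTAMs, against 5.97 in BMDM. It was 38.6-fold higher in mTAMs and 20.8-fold higher in pTAMs than in BMDM. *Chil3*, the gene for the chitinase-like protein Ym1, was 13.50 in mTAMs and 11.20 in pTAMs, against 5.02 in BMDM, a gap from BMDM of at least 246-fold for mTAMs and at least 49.9-fold for pTAMs. *Clec7a*, the receptor for fungal glucans, was 13.13 in mTAMs and 12.77 in pTAMs, against 8.71 in BMDM. *Kdm6b*, a histone demethylase gene that interleukin-4 and inflammatory signals both induce, was 11.04 in mTAMs and 10.36 in pTAMs, against 6.22 in BMDM. Its other probe sets gave smaller log2 differences from BMDM, 1.36 and 3.65 in mTAMs and 0.76 and 3.10 in pTAMs. Each of these 4 genes stood above BMDM in both kinds of TAM, with mTAMs higher. *Alox15*, a lipoxygenase gene, had the same order, at 9.46 in mTAMs and 8.74 in pTAMs, against 5.46 in BMDM. It is also a marker of eosinophils and of peritoneal macrophages.

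Other targets had their highest value in pTAMs. *Mgl2*, a lectin gene of alternatively activated macrophages and dermal dendritic cells, was 7.38 in mTAMs and 10.04 in pTAMs, against 3.92 in BMDM, so it was 6.32-fold lower in mTAMs than in pTAMs. *Ccl24*, a chemokine for eosinophils, was 9.74 in mTAMs and 12.10 in pTAMs, against 5.89 in BMDM, and 5.13-fold lower in mTAMs than in pTAMs. *Pdcd1lg2*, which encodes the checkpoint ligand PD-L2, was 6.57 in mTAMs and 8.15 in pTAMs, against 3.62 in BMDM, and 2.99-fold lower in mTAMs than in pTAMs. *Ccl17*, a chemokine for T helper 2 cells, was 6.06 in mTAMs and 7.55 in pTAMs, against 4.84 in BMDM. It was 2.81-fold lower in mTAMs than in pTAMs, and its partner *Ccl22* at least 1.46-fold. *Ccl24*, *Ccl17* and *Ccl22* were thus all lower in mTAMs than in pTAMs. The eosinophil marker *Prg2* was higher in mTAMs, while *Epx* and *Il5ra* were below the floor on every array. Any relation between these chemokine genes and eosinophils was not tested. *Cdh1*, which encodes E-cadherin and is a gene of epithelium too, was 8.16 in mTAMs and 9.88 in pTAMs, against 4.73 in BMDM. The epithelial genes *Krt18*, at 8.92 in mTAMs and 9.77 in pTAMs, against 3.78 in BMDM, and *Wfdc2*, at 8.92 in mTAMs and 9.58 in pTAMs, against 4.54 in BMDM, had the same order.

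Between mTAMs and pTAMs, 25 target genes were compared, of which 2 were higher in mTAMs by 2-fold or more and 6 lower. Against the floor 5 were lower. The median log2 difference was -0.51, against -0.08 over all genes, of which 5.59% were higher and 2.71% lower. *Tgm2* counted as within 2-fold, at a log2 difference of -0.98 by its main probe set. Its other probe sets, not all above the floor, gave from -1.30 to -1.01. Averaging the probe sets of each gene gave 7 lower targets. The higher targets were *Chil3*, 4.92-fold, and *Pparg*, at least 4.56-fold. *Pparg*, the nuclear receptor that alveolar macrophages require, was 7.75 in mTAMs and 5.55 in pTAMs, against 8.01 in BMDM, so pTAMs alone had it at background, just below the floor. *Siglecf*, a surface marker of alveolar macrophages, was at background in pTAMs and BMDM and at 8.91 in mTAMs. Whether alveolar macrophages of the lung account for part of these values was not tested.

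*Cd36*, a scavenger receptor for lipids that PPARγ and interleukin-4 induce, was the target lower than BMDM in both kinds of TAM. It was 8.43 in mTAMs and 8.33 in pTAMs, against 12.47 in BMDM, and thus 16.4-fold lower in mTAMs and 17.6-fold lower in pTAMs. Its other probe sets gave log2 differences from -4.84 to -3.96 for mTAMs against BMDM and from -5.07 to -3.95 for pTAMs against BMDM. *Mrc1*, the mannose receptor gene, was present at like values in all groups, at 11.45 in mTAMs and 11.96 in pTAMs, against 11.38 in BMDM.

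**Figure D5:**
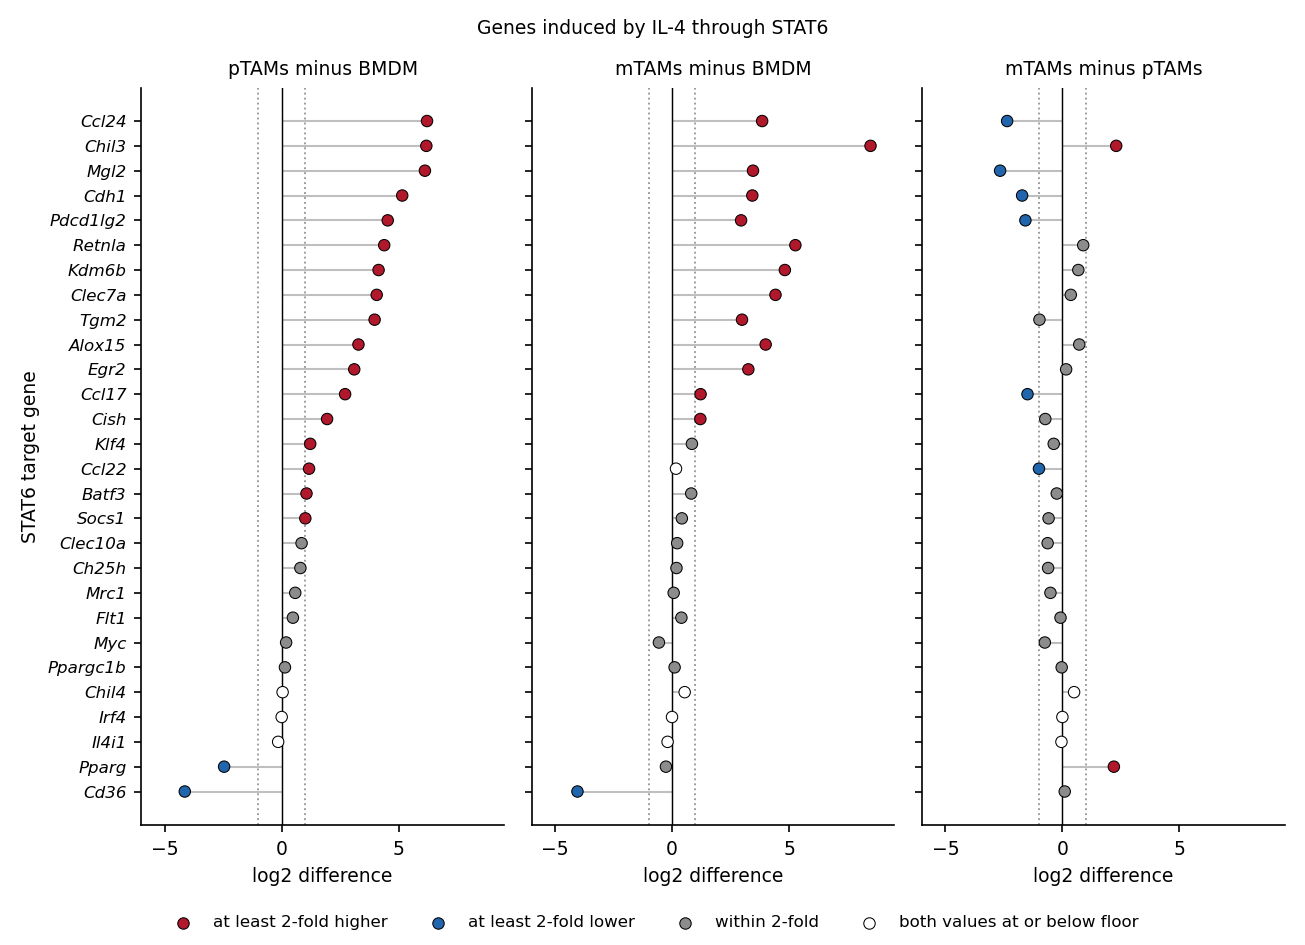
Log2 differences (horizontal axis) of 28 STAT6 target genes (vertical axis) in pTAMs minus BMDM, mTAMs minus BMDM and mTAMs minus pTAMs, red where at least 2-fold higher, blue where lower, gray within 2-fold and open where both values were at or below the floor. Of the genes compared, 17, 13 and 2 are red and 2, 1 and 6 are blue in the panels from left to right.

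Promoter windows were at hand for 20 of the 28 target genes, and 5 of them held TTCNNNNGAA and 5 TTCNNNGAA. Over all genes with a window, 8.01% held the first and 9.55% the second. Targets without a window included *Ccl24*, *Tgm2*, *Alox15* and *Kdm6b*. Shown are the 4 targets with the first motif that were higher in both kinds of TAM as measured, with the motif in capitals. *Chil3* is added for the second motif. The genes shown were thus picked by their values. *Chil4* held the same stretch as *Chil3*, 200 bases before its start, yet was below the floor on every array. The positions on GRCm38.p6 are chr16:48842455-48842482 on the plus strand for *Retnla*, 145 bases before its start, chr8:94810290-94810317 on the plus strand for *Ccl17*, 154 bases before, and chr19:29410828-29410855 on the plus strand for *Pdcd1lg2*, 82 bases before. They are chr6:129472892-129472919 on the minus strand for *Clec7a*, 131 bases before the farther of its starts, and chr3:106167719-106167745 on the minus strand for *Chil3*, 172 bases before its start. The fifth gene with the first motif was *Cd36*, which was lower in TAMs and has its match after the start. A match shows only that these letters are present, not that STAT6 bound there.
Retnla: gaatcataaTTCACAAGAAattgctaaa
Ccl17: gagtgaccaTTCTCTGGAAagccacaaa
Pdcd1lg2: atgctccagTTCCTCAGAAaccattctg
Clec7a: atttcagttTTCTTCAGAAgttacagcc
Chil3: aatacccacTTCTTAGAAacatagcta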

How the data were processed

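Total RNA of the mTAM, pTAM and BMDM samples was hybridised to Affymetrix mouse arrays, 1 per group. The authors deposited 1 table of log2 values for 45037 probe sets, made with RMA, which corrects background, normalizes quantiles between arrays and summarizes probe sets. The sources used here give no version of RMA. Since RMA equalizes the arrays, it hides a shift of all genes together. Names came from the platform annotation, in which 34945 had 1 symbol, 932 several and 9160 none, and only the first kind was used. The probe set with the highest mean stood for its gene. A gene entered a comparison if either array had it above the floor, and 2-fold or more was called as measured. No test or p-value is possible with 1 array per group, and precision is limited by the number of arrays.

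The members and all gene lists were chosen with earlier results of these data known. All members were named, and of each other list up to 8 called genes per comparison, those with the largest differences first, and up to 4 more. Patterns were compared by Euclidean distance without predicted genes. The alternatives tried were a 3-fold threshold, no floor, raising the floor by 1 log2 unit, raising values to the floor, averaging the probe sets of a gene, leaving out probe sets whose names mark shared or variant transcripts, and normalizing by the median, by quantiles or by cyclic loess. A floor at the 90th percentile and a target list without marker genes were chosen after seeing the data. The procedure was tested on simulated data. The software was R 4.3.3 with limma 3.58.1, and Python 3.11.15 with pandas 2.3.3, numpy 2.4.6 and matplotlib 3.10.9.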

Additional observations from a re-analysis of the deposited data

How the results depend on the processing

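No paired analysis was possible because each group had 1 array. Of 166 counts of members, pathway genes and STAT6 targets recomputed under the alternatives, 147 stayed within 1.5 times the reported count and 19 did not. No called member difference changed sign in any of the alternatives. The 147 include counts of 0 that stayed 0, such as members lower in each comparison, which say little about stability. Members that exceeded pTAMs by 2-fold or more in mTAMs numbered 1 as reported and 0 with a 3-fold threshold, with arrays shifted to the same median, after quantile normalization, with a floor 1 log2 unit higher and with values raised to the floor, where the *Il4* difference came to 0.01. It was kept with a floor at the 90th percentile of the receptor probe sets, 5.23. Without probe sets for shared or variant transcripts, *Il4ra* and *Jak3* had no value, so 1 member was higher in pTAMs and 2 in mTAMs than in BMDM. A 3-fold threshold left 2 in mTAMs. It also left 5 pathway genes higher in mTAMs than in BMDM, 0 lower in each of the 3 comparisons, and 3 STAT6 targets lower in mTAMs than in pTAMs. Pathway genes lower in pTAMs than in BMDM were 2 with arrays shifted to the same median and 0 when the probe sets of a gene were averaged. Pathway genes higher in mTAMs than in pTAMs were 1 after cyclic loess normalization and 1 without the shared probe sets, which also left 1 STAT6 target higher in mTAMs than in pTAMs and 1 lower in pTAMs than in BMDM.

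Cyclic loess normalization moved the median of all genes in mTAMs against BMDM to -0.02. Over the alternatives, the log2 difference of *Il13ra1* ran from 4.53 to 5.82 in mTAMs against BMDM and from 4.08 to 5.16 in pTAMs against BMDM. That of *Il4ra* ran from 2.19 to 3.27 in mTAMs and from 2.12 to 3.01 in pTAMs, and that of *Jak3* from 1.27 to 1.47 in mTAMs and from 1.82 to 1.96 in pTAMs, each against BMDM. *Il4* and *Il13* lay too close to background for the arrays to measure a fold.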
